A study of Mus musculus with 57 samples.

Results

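Of 56332 mouse genes counted in 57 RNA-seq libraries of bone marrow, 30 genes of cholesterol synthesis and sterol handling are described here. The genes were listed by name and each was found under 1 Ensembl gene ID. All 30 passed the filter on low counts in every comparison. In mesenchymal stromal cells (MSC) Insig2, which encodes a membrane protein that holds back sterol synthesis, stood more than any other member above the progenitors on the log2 scale (3.86 ± 0.17, log2 difference ± SE, 3 MSC and 15 progenitor libraries), while 12 members were lower there, where 29.9% of all genes tested were lower. In haematopoietic stem cells (HSC) 12 members were higher than in the other progenitors, where 21.5% of all genes tested were higher, led by Abca1 and Stard4. Between treated and control libraries 0 of the 30 passed the adjusted threshold in any of the 6 sorted populations by edgeR's test with its filter on low counts. With no filter Fdps was called in Myeloid cells, both over all of them and in batch C alone. Abcg1 was called in Myeloid cells of batch C alone by DESeq2 and with no filter. In these settings more of all genes were called too, and the closing section gives their counts.

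The groups were male C57BL/6 mice, 8 weeks old, given for 4 weeks either an antibody against PAPP-A (label aPAPPA, 10 mouse pools, called treated here) or the control (label control, 10 mouse pools), which the labels do not describe further. PAPP-A is a secreted protease that frees insulin-like growth factors from their binding proteins. Besides MSC and HSC, the sorted populations were Myeloid cells and 3 kinds of progenitor: the megakaryocyte-erythroid kind (MEP), the granulocyte-monocyte kind (GMP) and the common lymphoid kind (CLP). Whole bone marrow (WBM) was sequenced from control mice alone among these libraries. The labels give 3 batches. Batch A held 3 control WBM libraries, 4 treated and 3 control HSC libraries, 4 treated and 4 control libraries for each of the other 3 progenitor kinds, and 1 treated and 3 control MSC libraries. Batch B held 3 treated and 3 control Myeloid libraries. Batch C held 3 treated and 3 control libraries each of MSC and Myeloid, and 1 control WBM library. A replicate is a pool of mice, so within a population p-values measure the spread between pools. The labels do not give the number of mice in a pool. The main fits between populations took libraries of the same pool as separate samples, and the pool was a term only in an alternative fit. Libraries that share a pool number came from the same mice.

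Cells build cholesterol from acetyl-CoA. The mevalonate arm (Acat2, Hmgcs1, Mvk, Pmvk, Mvd, Idi1, Fdps) ends in farnesyl diphosphate, which also feeds protein prenylation, ubiquinone and dolichol. The sterol arm (Fdft1, Sqle, Lss, Cyp51, Tm7sf2, Msmo1, Nsdhl, Hsd17b7, Ebp, Sc5d, Dhcr7) makes squalene, closes it to lanosterol and trims that to cholesterol. The transcription factors encoded by Srebf1 and Srebf2 switch these enzymes on when sterols are low. Scap escorts them out of the endoplasmic reticulum, and the proteins of Insig1 and Insig2 retain them there when sterols are plentiful. Insig1 is itself a target of these factors. When sterols accumulate, liver X receptors, of which Nr1h2 encodes one, raise the efflux transporters Abca1 and Abcg1 and the ubiquitin ligase Mylip, which degrades lipoprotein receptors. Npc1 and Npc2 move cholesterol out of lysosomes, and Stard4 carries sterol through the cytosol.

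Of the 30 genes, 24 had an entry in the RefSeq promoter table (GRCm38.p6), with 32 windows of 300 bases, 250 before to 50 after the start. Each window was searched on both strands for a sterol regulatory element core (TCACNCCAC), CCAAT, a GC box (GGGCGG) and an E-box (CACGTG). The element core was present in 1 of the 24 genes, Hmgcs1 (4.2%), against 1.44% of the 27025 genes in the table. CCAAT stood in a window of 20 of the 24 genes (83.3%), against 41.06% of the table's genes. A GC box stood in 22 (91.7%), against 38.2%, and the E-box in 6 (25.0%), against 8.09%. These are letter matches, not shown binding sites. The windows of Hmgcs1, Insig1 and Insig2 are shown because they hold the 1 element core and belong to the pair of retention genes whose order differed between MSC and progenitors. Capitals mark the element core and CCAAT or its complement ATTGG, and each runs 5′ to 3′ along the gene's strand.
Hmgcs1 (chr13:119690101-119690400, plus strand): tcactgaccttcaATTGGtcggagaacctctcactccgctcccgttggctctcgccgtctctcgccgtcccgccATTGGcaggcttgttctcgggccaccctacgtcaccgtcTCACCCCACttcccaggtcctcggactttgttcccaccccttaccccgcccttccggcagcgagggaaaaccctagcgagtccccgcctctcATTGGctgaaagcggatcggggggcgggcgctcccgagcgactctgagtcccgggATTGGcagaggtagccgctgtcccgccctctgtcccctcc
Insig1 (chr5:28071162-28071461, plus strand): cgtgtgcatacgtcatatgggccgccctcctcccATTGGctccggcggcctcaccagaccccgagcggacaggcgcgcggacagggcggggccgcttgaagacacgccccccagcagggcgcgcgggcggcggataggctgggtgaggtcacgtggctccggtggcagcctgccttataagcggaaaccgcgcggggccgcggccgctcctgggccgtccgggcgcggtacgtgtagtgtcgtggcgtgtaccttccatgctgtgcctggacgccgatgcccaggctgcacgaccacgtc
Insig2, its start farthest upstream (chr1:121332540-121332839, minus strand): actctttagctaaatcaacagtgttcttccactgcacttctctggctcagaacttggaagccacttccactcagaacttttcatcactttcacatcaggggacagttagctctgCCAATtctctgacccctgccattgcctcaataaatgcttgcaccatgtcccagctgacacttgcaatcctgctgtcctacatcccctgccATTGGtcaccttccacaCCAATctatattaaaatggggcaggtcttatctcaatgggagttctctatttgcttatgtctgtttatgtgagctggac
The element core of Hmgcs1 lies 137 bases before the start. The Insig2 window holds CCAAT or its complement 3 times and none of the other motifs, and the Insig1 window holds it once, beside 3 GC boxes and an E-box. Insig2 has 2 further windows in the table, each with 1 GC box and no CCAAT.

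The libraries held 107412 to 125537299 counts. The shallowest, with fewer than 1000000 counts, were treated HSC pool 6, control MSC pool 7, treated MSC pool 8 and control CLP pool 5. Levels below are in CPM, counts scaled to 1000000 per library. In control MSC pool 7, 3 counts equalled 18.6 CPM, so values there are coarse. The defining markers fitted each population's name: the 6 stromal markers summed to between 42220 and 59550 CPM in control MSC libraries, and to at most 312 CPM in any control progenitor library. Markers of other cells were present too. The 6 Myeloid markers summed to 12000 CPM in treated MSC pool 8 and to between 2203 and 7281 CPM in control MSC libraries of batch A. GMP markers summed to between 2742 and 9089 CPM in control CLP libraries, against 24050 to 35100 CPM in control GMP libraries. The 5 CLP markers summed to between 1472 and 2243 CPM in control CLP libraries, and to at most 108 CPM in other control progenitor libraries. In bulk RNA, fewer cells of a type and less RNA per cell cannot be told apart. Pappa itself, whose protein the antibody targets, had 509 to 841 CPM in treated MSC libraries and 355 to 613 CPM in control MSC libraries, and at most 20.3 CPM in any library of another population. By batch, it had 509 to 598 CPM in treated and 355 to 362 CPM in control MSC pools of batch C, and 841 CPM in the treated and 435 to 613 CPM in the control pools of batch A, with no overlap in either batch.

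Levels are CPM on library sizes scaled by trimmed means (TMM) over all 57 libraries, and levels of different genes are compared per kilobase of the median coding transcript. Among the sterol handling genes Npc2 was high in every control population, with means between 34.3 CPM per kilobase in HSC and 237 CPM per kilobase in MSC of batch C. In control MSC libraries of batch A Insig2 had 126 CPM per kilobase, far above its paralogue Insig1 (10.3 CPM per kilobase), and per kilobase of all exons together the values were 45.4 CPM for Insig2 and 9.01 CPM for Insig1. In control HSC, CLP, GMP and MEP libraries the order was the other way, and Insig1 averaged 20.4, 14.6, 13.7 and 9.5 CPM per kilobase there, against 10.7, 4.9, 8.4 and 7.4 CPM per kilobase for Insig2. Fdps of the mevalonate arm had 83.7 CPM per kilobase in GMP and 105 CPM per kilobase in Myeloid cells of batch B. Abca1 was among the lowest members, at 0.2 CPM per kilobase in GMP and Myeloid cells. The place of Stard4 depends on the length used: in control HSC it had 117 CPM per kilobase of median coding transcript and 19.7 CPM per kilobase of all its exons together.

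**Figure D1:**
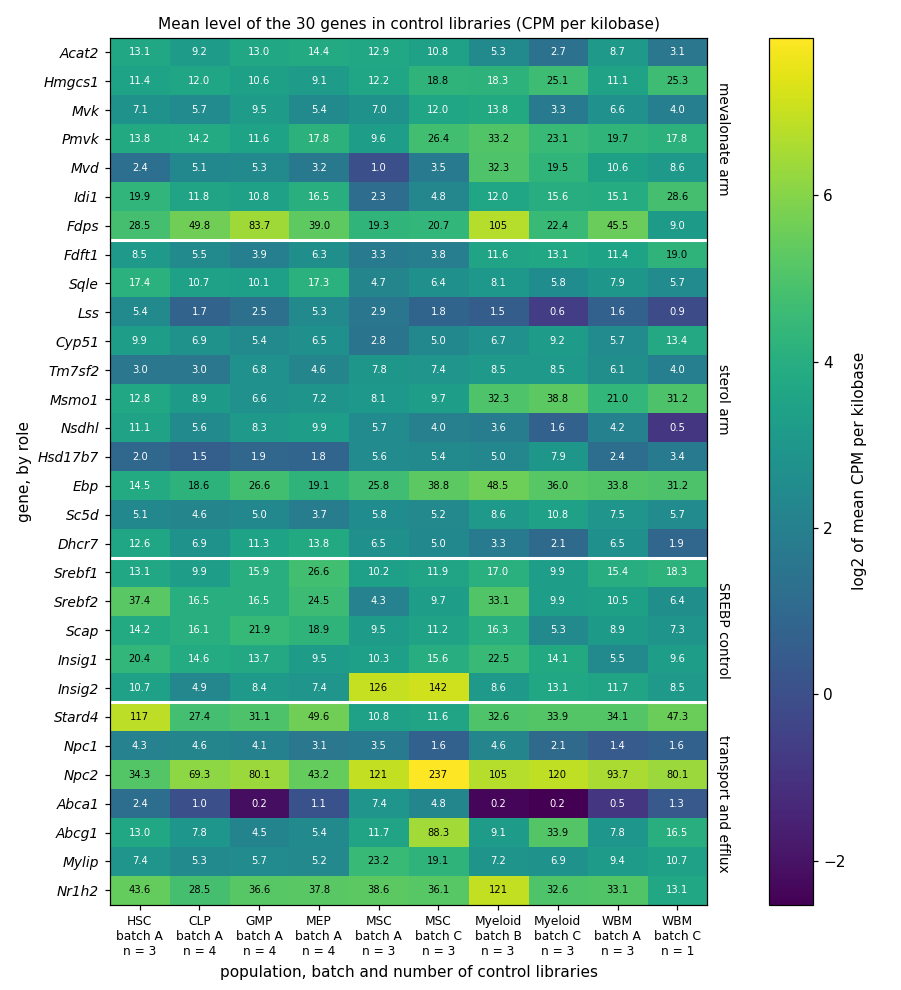
Mean level of each gene (rows, ordered by role) in control libraries of each population and batch (columns, with the number of libraries), in CPM per kilobase of the median coding transcript; colour is the log2 of the printed value. Insig2 stands at 126 and 142 CPM per kilobase in MSC and between 4.9 and 13.1 CPM per kilobase in the other groups.

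MSC were set against the 4 progenitor populations within batch A (control libraries, 3 against 15). A gene is called higher or lower at an adjusted p under 0.05 by edgeR's quasi-likelihood test, with adjustment over all genes tested. Higher in MSC were 5 members, where 26.9% of the 17410 genes tested were higher, and lower were 12, where 29.9% of all genes were lower. The members' median log2 difference was -0.44 and that of all genes was -0.09. The higher members were the retention gene Insig2, the liver X receptor targets Abca1 and Mylip, the lysosomal Npc2, and Hsd17b7, a ketoreductase of sterol demethylation. The lower ones were 3 of the 7 mevalonate arm genes (Idi1, Fdps, Mvd), 4 of the 11 sterol arm genes (Sqle, Cyp51, Fdft1, Dhcr7), 4 of the 5 control genes (Srebf1, Srebf2, Scap, Insig1) and the carrier Stard4.

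Insig2 (GRCm38 chr1:121304353-121332589, minus strand) had 182, 154 and 137 CPM in the control MSC pools of batch A, against 2.44, 9.70 and 16.4 CPM as the lowest, median and highest of the 15 progenitor libraries. Each MSC pool lay far above each progenitor library (adjusted p = 4.52e-14). The paralogue Insig1 (chr5:28071363-28078662, plus strand) had 23.9, 34.9 and 24.8 CPM in MSC, against 23.1, 35.7 and 68.8 CPM as the lowest, median and highest progenitor libraries. These overlapped, and the log2 difference of -0.61 ± 0.20 (adjusted p = 0.016) did not hold without pool 3 (highest adjusted p of the fits without 1 pool, 0.186).

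Abca1 (chr4:53030787-53159895, minus strand) had 82.7, 77.2 and 68.3 CPM in MSC, against 1.74, 10.3 and 28.5 CPM as the lowest, median and highest progenitor libraries. The groups did not overlap, and the log2 difference was 2.91 ± 0.21 (adjusted p = 2.24e-10). Mylip (chr13:45389742-45412022, plus strand) had 76.1, 61.0 and 37.2 CPM in MSC, against 6.38, 14.5 and 20.9 CPM as the lowest, median and highest progenitor libraries. Its log2 difference was 1.92 ± 0.22 (adjusted p = 2.24e-07), also with no overlap. Abcg1, the other efflux transporter, had 13.3, 44.8 and 68.3 CPM in MSC and 9.40, 22.2 and 53.6 CPM as the lowest, median and highest progenitor libraries, with overlapping groups and no call.

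Idi1, the isomerase of isopentenyl diphosphate, had 4.11, 10.6 and 6.21 CPM in MSC, against 24.9, 41.0 and 65.5 CPM as the lowest, median and highest progenitor libraries. Every MSC pool was below every progenitor library, with a log2 difference of -2.90 ± 0.28 (adjusted p = 1.6e-08). Srebf2 (chr15:82147181-82205379, plus strand), the main activator of the synthesis enzymes, had 29.2, 16.8 and 12.4 CPM in MSC, against 19.7, 104 and 206 CPM as the lowest, median and highest progenitor libraries. The log2 difference was -2.36 ± 0.43 (adjusted p = 9.4e-05), with an overlap through 1 CLP pool. Stard4 had 4.35, 19.9 and 6.21 CPM in MSC, against 21.3, 34.0 and 111 CPM as the lowest, median and highest progenitor libraries. All MSC values were below the progenitors, and the log2 difference of -2.28 ± 0.35 (adjusted p = 1.19e-05) ran between -3.58 without pool 5 and -1.61 without pool 3. Scap, which encodes the escort protein, was also lower, with a log2 difference of -1.23 ± 0.26 (adjusted p = 0.000419).

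Of the other enzymes called lower in MSC, Fdps had a log2 difference of -1.82 ± 0.33, Mvd of -1.56 ± 0.41, Sqle, which epoxidises squalene, of -1.33 ± 0.28, and Cyp51, the lanosterol demethylase, of -1.21 ± 0.26 (adjusted p between 8.41e-05 and 0.00289). Sqle and Mvd had 0 counts in MSC pool 7, where 3 counts would be 18.6 CPM. Fdps had 7.98, 30.5 and 37.2 CPM as its lowest, median and highest MSC pools, overlapping the lowest progenitor library (33.8 CPM). Of 10 alternative fits, 9 called Fdps (highest adjusted p 0.108) and 9 called Mvd (0.852), while all 10 called Sqle and Cyp51. Fdft1, Srebf1 and Dhcr7 had smaller differences, -0.83 ± 0.26, -0.70 ± 0.23 and -0.79 ± 0.30. Fdft1 lost its call without pool 3 (adjusted p = 0.057), Srebf1 without pool 5 (0.154), and Dhcr7 without pool 3, 5 or 7 (up to 0.168). Hsd17b7 was higher, with 15.9, 22.4 and 12.4 CPM in MSC and 2.93, 5.32 and 8.01 CPM as the lowest, median and highest progenitor libraries (log2 difference 1.54 ± 0.30, adjusted p = 0.000156). Npc2 was higher by 0.98 ± 0.22 (adjusted p = 0.00071).

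All 16 of the listed cell cycle genes were lower in MSC than in progenitors, with a median log2 difference of -4.46, and 5 of the 6 Myeloid markers were higher (median 2.14). Of the 5 erythroid markers 4 were higher too (median 3.84), summing to between 1455 and 4134 CPM in the MSC libraries. The 5 plasma and B cell markers (2 called higher, median 1.32) summed to 7597 CPM in 1 of the 3 MSC libraries and to 16.8 and 84.1 CPM in the other two. The part of these lists in the differences was not tested. Scaling by the median of ratios moved the median of all genes by 0.28 on the log2 scale in this comparison and changed the share of calls that were higher in MSC to 57.5%, against 47.3% with TMM scaling. Under it Fdft1, Srebf1, Insig1 and Dhcr7 were no longer called, and the other 13 members kept their call and direction.

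MSC could also be set against Myeloid cells of the same 3 control pools in batch C. Higher in MSC were 7 members, where 25.9% of 16183 genes were higher, and lower were 5, where 22.4% of all genes were lower. Insig2 had 152, 173 and 207 CPM in MSC and 16.3, 14.9 and 18.0 CPM in Myeloid cells, a log2 difference of 3.38 ± 0.22 (adjusted p = 1.17e-05). Abca1 had 50.5, 42.3 and 55.7 CPM in MSC and 0, 2.55 and 2.78 CPM in Myeloid cells, where 3 counts in the pool at 0 would be 0.221 CPM (log2 difference 4.74 ± 0.98, adjusted p = 0.00504, and 0.0654 without pool 17). Mylip, Scap, Acat2 (the thiolase that opens the pathway), Npc2 and Mvk (mevalonate kinase) were the other higher members, by 0.93 to 1.97 on the log2 scale. Without pool 17 the calls of Scap, Acat2, Npc2, Mvk, Idi1 and Stard4 were lost too, and without pool 19 those of Mvk and Stard4.

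The 5 members lower in MSC than in Myeloid cells were synthesis enzymes and the carrier. Msmo1, a monooxygenase that removes methyl groups from lanosterol derivatives, had 18.3, 24.7 and 16.5 CPM in MSC and 79.7, 88.0 and 70.0 CPM in Myeloid cells, a log2 difference of -2.05 ± 0.24 (adjusted p = 0.000268). Mvd, the decarboxylase that yields isopentenyl diphosphate, had 6.47, 7.14 and 5.02 CPM in MSC and 23.2, 30.6 and 49.0 CPM in Myeloid cells (log2 difference -2.52 ± 0.40, adjusted p = 0.00126). Fdft1 (squalene synthase), Idi1 and Stard4 had log2 differences of -1.84 ± 0.35, -1.73 ± 0.31 and -1.59 ± 0.37. For these 5 members no MSC pool reached a Myeloid pool. In treated libraries of batch C, which this comparison did not use, 9 of the 12 members were called again with the same direction. Insig2 had 198, 194 and 182 CPM in treated MSC and 9.59, 8.23 and 10.7 CPM in treated Myeloid cells (log2 difference 4.32, adjusted p = 2.82e-06). The cell cycle list was again lower in MSC (15 of 16 called, median -2.90).

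**Figure D2:**
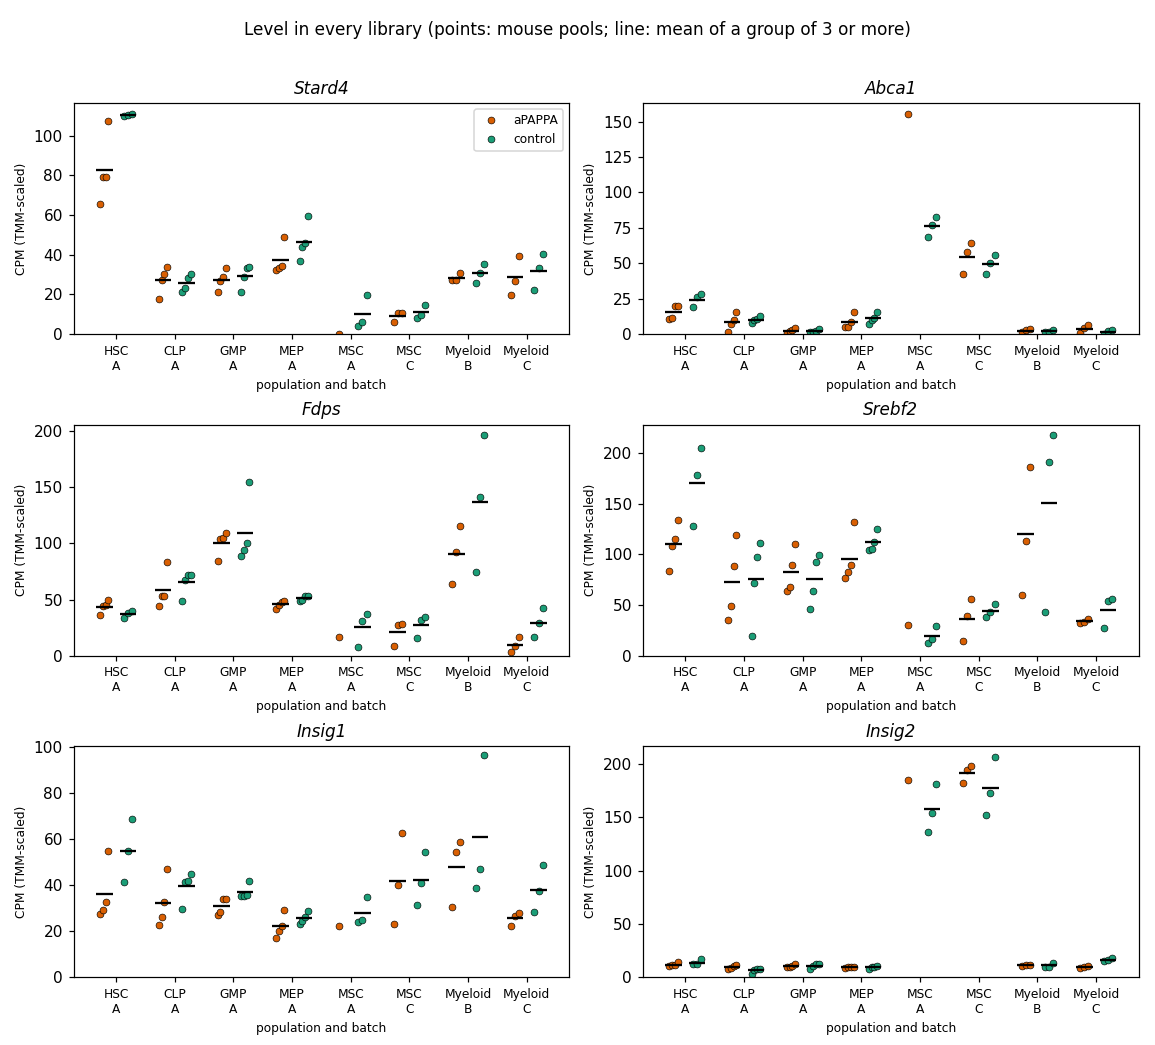
CPM of 6 genes in every sorted library, by population and batch, with treated pools left of control pools; points are mouse pools and lines are means of groups of 3 or more. Insig2 and Abca1 stand apart in MSC, Stard4 is high in HSC, Srebf2 is high in control HSC and spread between 42.7 and 218 CPM among Myeloid pools of batch B, and Fdps is high in GMP and in Myeloid cells of batch B.

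In HSC, 12 of the 30 members were higher than in the mean of the other 3 progenitors, where 21.5% of 16084 genes were higher, and 4 were lower, where 12.8% of all genes were lower (control libraries of batch A, 3 against 12). The members' median log2 difference was 0.32 and that of all genes 0.01. The higher members were Idi1 of the mevalonate arm, Fdft1, Sqle, Lss, Cyp51 and Msmo1 of the sterol arm, the control genes Srebf2, Insig1 and Insig2, and Stard4, Abca1 and Abcg1. The lower members were Fdps, Mvd, Ebp and Npc2. Neighbouring enzymes thus stood on opposite sides: Idi1 and Fdft1 were called higher, and Fdps, the enzyme between them, was called lower.

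Stard4 had 110, 111 and 110 CPM in the control HSC pools, against 21.3, 31.8 and 59.5 CPM as the lowest, median and highest of the other progenitor libraries. The 3 HSC pools were nearly equal and lay above all 12 others, with a log2 difference of 1.74 ± 0.14 (adjusted p = 1.15e-07). Abca1 had 28.5, 26.0 and 18.8 CPM in HSC, against 1.74, 8.83 and 15.5 CPM as the lowest, median and highest of the others. Its groups did not overlap either (log2 difference 1.89 ± 0.23, adjusted p = 8.6e-06). Abcg1 had 48.1, 53.6 and 38.7 CPM in HSC, against 9.40, 18.4 and 39.6 CPM as the lowest, median and highest of the others, with a slight overlap (1.15 ± 0.25, adjusted p = 0.00184).

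Srebf2 had 178, 206 and 128 CPM in HSC, against 19.7, 98.4 and 125 CPM as the lowest, median and highest of the others. All 3 HSC pools were above the others (log2 difference 0.98 ± 0.30, adjusted p = 0.0166), but the call was lost without pool 3, 5 or 7 (up to 0.288). Insig1 had 55.0, 68.8 and 41.3 CPM in HSC, against 23.1, 35.3 and 44.7 CPM as the lowest, median and highest of the others (0.70 ± 0.15, adjusted p = 0.00157, and 0.103 without pool 5). Insig2 was higher by 0.63 ± 0.22 (adjusted p = 0.0346) and no longer called with the pool as a block (0.0845) or without pool 3, 5 or 7 (up to 0.317).

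Idi1 had 59.6, 55.5 and 65.5 CPM in HSC, against 24.9, 38.0 and 53.8 CPM as the lowest, median and highest of the others, with no overlap (0.62 ± 0.12, adjusted p = 0.0008, and 0.0897 without pool 7). Msmo1 was likewise above all others, with 24.9, 27.2 and 26.4 CPM in HSC and 9.62, 14.8 and 22.3 CPM as the lowest, median and highest of the others (0.76 ± 0.20, adjusted p = 0.00787). The log2 differences of Cyp51, Fdft1, Sqle and Lss (lanosterol synthase) were between 0.49 and 0.89. Their calls, and that of Msmo1, did not hold without at least 1 of the pools 3, 5 and 7, with the highest adjusted p between 0.0706 for Cyp51 and 0.343 for Lss.

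Fdps (chr3:89093588-89101959, minus strand), which makes farnesyl diphosphate, had 40.0, 33.8 and 38.2 CPM in HSC, against 48.5, 69.9 and 155 CPM as the lowest, median and highest of the others. Every HSC pool lay below them (log2 difference -0.95 ± 0.17, adjusted p = 0.000433), and 10 of 11 alternative fits called it (highest adjusted p 0.109). An annotated gene on the same strand shares exon sequence with Fdps, so how its reads were divided is uncertain. Mvd, Npc2 and Ebp, a sterol isomerase, had log2 differences of -0.90 ± 0.27, -0.88 ± 0.27 and -0.56 ± 0.17, and each lost its call without 1 or another pool (highest adjusted p 0.099, 0.0892 and 0.134). Of the 16 cell cycle genes, 7 were lower in HSC and 0 higher (edgeR, median -0.41), and their part was not tested.

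The treated libraries, which the control comparison did not use, gave the same direction for all 16 members, and 7 of them passed the threshold there: Stard4 (1.52), Abca1 (1.56), Abcg1 (1.39), Msmo1 (1.08), Cyp51 (0.62), Fdft1 (0.53) and Fdps (-0.54, all log2 differences). Srebf2 had 0.45 there (adjusted p = 0.234) and Insig1 0.24 (adjusted p = 0.468). The share of all genes called in treated libraries is not set beside the members called again, in this or the other population comparisons. The counts of members called again are therefore not read as particular to the members.

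GMP had 5 members higher than the other progenitors, where 11.7% of the 16084 genes were higher, and 8 lower, where 15.3% of all genes were lower (4 against 11 control libraries). The comparisons of the 4 progenitor populations share their libraries, so a gene that is high in one has a lower difference in the others. Higher were Fdps, Mvk, Tm7sf2 (a sterol reductase), Ebp and Npc2, and lower were Abca1, Stard4, Abcg1, Idi1, Sqle, Fdft1, Cyp51 and Msmo1. Fdps had 101, 88.7, 154 and 94.6 CPM in GMP, against 33.8, 49.6 and 72.3 CPM as the lowest, median and highest of the others, so all 4 GMP pools were above them (log2 difference 1.04 ± 0.14, adjusted p = 2.84e-05). Abca1 had 1.87, 3.56, 1.74 and 2.24 CPM in GMP, against 7.31, 11.5 and 28.5 CPM as the lowest, median and highest of the others. The GMP pools all lay below (log2 difference -2.69 ± 0.28, adjusted p = 1.86e-06).

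Stard4 had a log2 difference in GMP of -0.89 ± 0.15 (adjusted p = 0.000196) and Fdft1 of -0.89 ± 0.19 (adjusted p = 0.00167), and both kept their calls when any 1 pool was left out. Tm7sf2 had 10.0, 8.41, 9.96 and 8.12 CPM in GMP, against 2.31, 5.15 and 7.04 CPM as the lowest, median and highest of the others (0.87 ± 0.23, adjusted p = 0.00822), though it shares exon sequence on the same strand with Vps51. The log2 differences of the other 8 called members ran between -0.96 for Abcg1 and 0.67 for Npc2. Each of these 8 lost its call in at least 1 fit that left out a pool, and Msmo1 in all 4. In the treated libraries 8 of the 13 members were called with the same direction, among them Fdps (1.00), Abca1 (-2.22) and Stard4 (-0.73), while Tm7sf2 had 0.34 (adjusted p = 0.336).

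In MEP, 3 members were higher than in the other progenitors, where 15.1% of the genes were higher, and 1 was lower, where 14.5% were lower. Srebf1 (chr11:60199089-60222581, minus strand), whose product favours fatty acid genes, had 137, 99.5, 103 and 117 CPM in MEP, against 26.6, 61.7 and 72.2 CPM as the lowest, median and highest of the others. All 4 MEP pools were above them (log2 difference 1.04 ± 0.15, adjusted p = 7.23e-05). Insig1 had 23.1, 28.6, 24.4 and 26.0 CPM in MEP, against 29.6, 41.5 and 68.8 CPM as the lowest, median and highest of the others, all 4 below (-0.78 ± 0.15, adjusted p = 0.00074). Sqle (0.47 ± 0.11, adjusted p = 0.00448) and Lss (0.88 ± 0.23, adjusted p = 0.009, and 0.0666 without pool 7) were higher. Each was called in 9 of 11 alternative fits, with a highest adjusted p of 0.234 for Sqle and 0.153 for Lss. In the treated libraries Srebf1 (0.91), Sqle (0.73) and Lss (0.97) were called again, and Insig1 had a log2 difference of -0.51 (adjusted p = 0.074).

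In CLP, 2 members were higher, where 17.3% of the genes were higher, and 5 were lower, where 9.95% were lower. Stard4 had 21.3, 30.3, 23.2 and 28.3 CPM in CLP, against 21.3, 44.2 and 111 CPM as the lowest, median and highest of the others (log2 difference -0.92 ± 0.16, adjusted p = 0.000566). It was the 1 member whose call held whichever pool was left out, and its range overlapped that of GMP. Lss (-1.12 ± 0.29), Dhcr7, the reductase of the last step (-0.75 ± 0.23), Srebf1 (-0.73 ± 0.17) and Acat2 (-0.44 ± 0.15) were lower, and Mvd (0.72 ± 0.24) and Npc2 (0.66 ± 0.22) were higher. Without the shallow pool 5 library Dhcr7, Mvd, Npc2 and Acat2 were not called (adjusted p of Dhcr7 0.0891), and with the pool as a block 4 of the 7 remained, Mvd, Npc2 and Acat2 having adjusted p of 0.0616, 0.0906 and 0.0543. In the treated libraries Stard4, Dhcr7 and Acat2 were called again. All 5 GMP markers and all 6 Myeloid markers were called higher in CLP, with the Myeloid markers summing to between 315 and 7407 CPM over the 4 CLP pools, and their part in these differences was not tested.

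**Figure D3:**
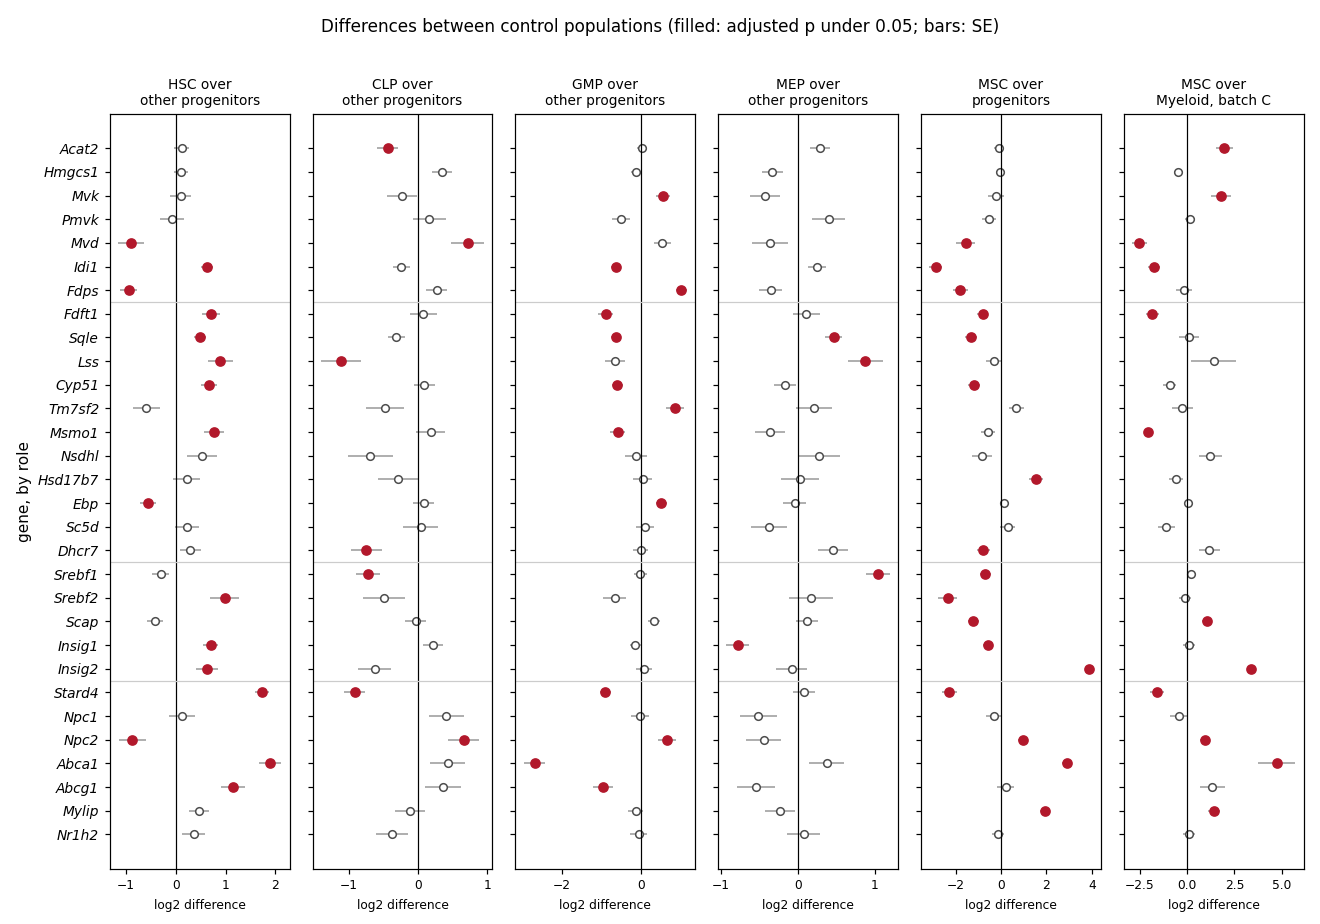
Log2 difference ± SE of each gene (rows, ordered by role) in the 6 comparisons between control populations, each panel with its own scale; filled points have an adjusted p under 0.05. The HSC and GMP panels lean to opposite sides for Idi1, Fdps, Stard4, Abca1 and Abcg1, which share libraries, and Insig2 stands at 3.86 and 3.38 in the MSC panels.

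Other genes of these pathways, outside the 30, were read from 2 lists. Of 31 tested genes of isoprenoid use, sterol esterification, uptake and oxysterol metabolism, 5 were higher and 7 lower in HSC, 7 higher and 5 lower in GMP, 8 higher and 2 lower in MEP, 3 higher and 8 lower in CLP, and 5 higher and 10 lower in MSC against progenitors. Soat1, which esterifies cholesterol for storage, was higher in MSC against progenitors (2.94) and in GMP (1.82) and lower in MEP (-2.66, log2 differences). Tmem97, a sterol-responsive membrane protein, was lower in HSC (-1.52) and MSC (-1.41) and higher in GMP (0.87). Scarb1, a receptor for high-density lipoprotein, was lower in MSC (-2.53) and HSC (-0.92) and higher in GMP (0.68) and MEP (0.69). In MSC against Myeloid cells Soat1 (-0.08), Tmem97 (0.31) and Scarb1 (-0.78) were not called. Of the 14 fatty acid genes that the same transcription factors control, 5 were higher and 1 lower in HSC, and 5 higher and 1 lower in MEP. In GMP 3 were higher and 7 lower, in CLP 1 higher and 3 lower, and in MSC against progenitors 4 higher and 6 lower. Acss2, which makes acetyl-CoA from acetate, was higher in HSC (1.68) and MEP (1.87) and lower in GMP (-2.05) and CLP (-1.50). In MSC against progenitors, Scd1 (4.76), the desaturase of stearate, and Me1 (5.86), malic enzyme, were higher. Fasn (-2.73), fatty acid synthase, and Acly (-2.30), ATP citrate lyase, were lower there. Against Myeloid cells Fasn was instead higher in MSC (1.94), as were Scd1 (9.21) and Me1 (9.08), and Acly was lower (-1.23).

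Treated and control libraries were compared within each population. In MSC (4 treated and 6 control libraries, batch as a term), 0 of the 30 members were called by edgeR or DESeq2. By edgeR 0.0125% of 15984 genes were called higher and 0.0188% lower, and DESeq2 called more genes. In edgeR's test 676 of all genes had an unadjusted p under 0.05, and 2 of them were members. The members' median log2 difference, treated minus control, was -0.09, and that of all genes -0.03. The smallest p belonged to Npc1, with 22.2 CPM in the treated pool of batch A and 26.0, 15.3 and 18.4 CPM in those of batch C, against 24.6, 11.2 and 18.6 CPM in control pools of batch A and 7.69, 11.7 and 6.02 CPM in those of batch C. The groups overlapped over both batches and did not in batch C (log2 difference 0.98 ± 0.44, adjusted p = 0.999). Tm7sf2 had 4.03 CPM in the treated pool of batch A and 1.84, 5.38 and 2.63 CPM in those of batch C, against 10.6, 8.72 and 12.4 CPM in control pools of batch A and 16.8, 7.67 and 5.49 CPM in those of batch C. Every treated pool was below every control pool (-1.54 ± 0.71, adjusted p = 0.999), though control pool 7 and treated pool 8 held 2 counts each. Abca1 had 155 CPM in the shallow treated pool 8 and 42.2 to 64.4 CPM in the other treated pools, against 42.3 to 82.7 CPM in control pools (0.41 ± 0.22, adjusted p = 0.999). Stard4 had 0 counts in treated pool 8, where 3 counts would be 6.05 CPM.

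In HSC (4 treated and 3 control libraries) 0 members were called by either tool. By edgeR 0% of 14494 genes were called higher and 0.0069% lower, and DESeq2 called more genes. In edgeR's test 1156 of all genes had an unadjusted p under 0.05, and 4 of them were members. Insig1 had 27.6, 32.9, 54.8 and 29.1 CPM in treated pools, against 55.0, 68.8 and 41.3 CPM in control pools. The treated pool at 54.8 CPM, pool 6, rests on 107412 counts, and the other 3 lay below the control pools (log2 difference -0.68 ± 0.24, adjusted p = 0.61). Srebf2 had 108, 83.2, 115 and 134 CPM in treated pools, against 178, 206 and 128 CPM in control pools (-0.51 ± 0.20, adjusted p = 0.618). Mylip had 9.77, 14.8, 5.48 and 9.47 CPM in treated pools, all below the 18.3, 20.9 and 16.5 CPM of control pools (-0.65 ± 0.29, adjusted p = 0.618). Its lowest value, 5.48 CPM, is that of pool 6, where 2 counts of Pmvk equalled 10.96 CPM. Of the 30 members, 20 had a negative log2 difference, with a median of -0.10 against -0.0002 for all genes.

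In CLP and GMP (4 treated and 4 control libraries each), 0 members were called by either tool and 0 had an unadjusted p under 0.05. By edgeR 0% of 12520 and 15334 genes were called in either direction. Of these, 29 in CLP and 195 in GMP had an unadjusted p under 0.05. The smallest member p in CLP was that of Msmo1 (-0.53 ± 0.30, adjusted p = 1), followed by Insig1 (-0.40 ± 0.26) and Tm7sf2 (0.61 ± 0.40). In GMP it was Insig1, with 34.1, 28.1, 33.8 and 26.9 CPM in treated pools, all below the 42.0, 35.4, 35.7 and 35.1 CPM of control pools (-0.27 ± 0.12, adjusted p = 1). Hsd17b7 (-0.39 ± 0.23) and Tm7sf2 (-0.19 ± 0.16) came next. In MEP 0 members were called by either tool, where edgeR called 0% of 13307 genes and DESeq2 called more. In edgeR's test 444 of all genes had an unadjusted p under 0.05, and 1 of them was a member. That was Nsdhl, a sterol dehydrogenase, with 16.3, 16.5, 18.5 and 19.1 CPM in treated pools, all below the 21.4, 20.1, 20.6 and 23.4 CPM of control pools (-0.23 ± 0.10, adjusted p = 0.999). Fdft1 in MEP had 18.1, 17.1, 16.8 and 15.8 CPM in treated pools, all below the 19.4, 22.1, 20.8 and 20.0 CPM of control pools (-0.23 ± 0.11, adjusted p = 0.999), and Mylip had -0.37 ± 0.19. The test of whether the treatment difference varied among the 4 progenitor populations called 0% of 18141 genes by edgeR and 0 members by either tool. The smallest member p in edgeR's test was that of Mylip (0.0966), then Tm7sf2 (0.103) and Insig2 (0.213).

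**Figure D4:**
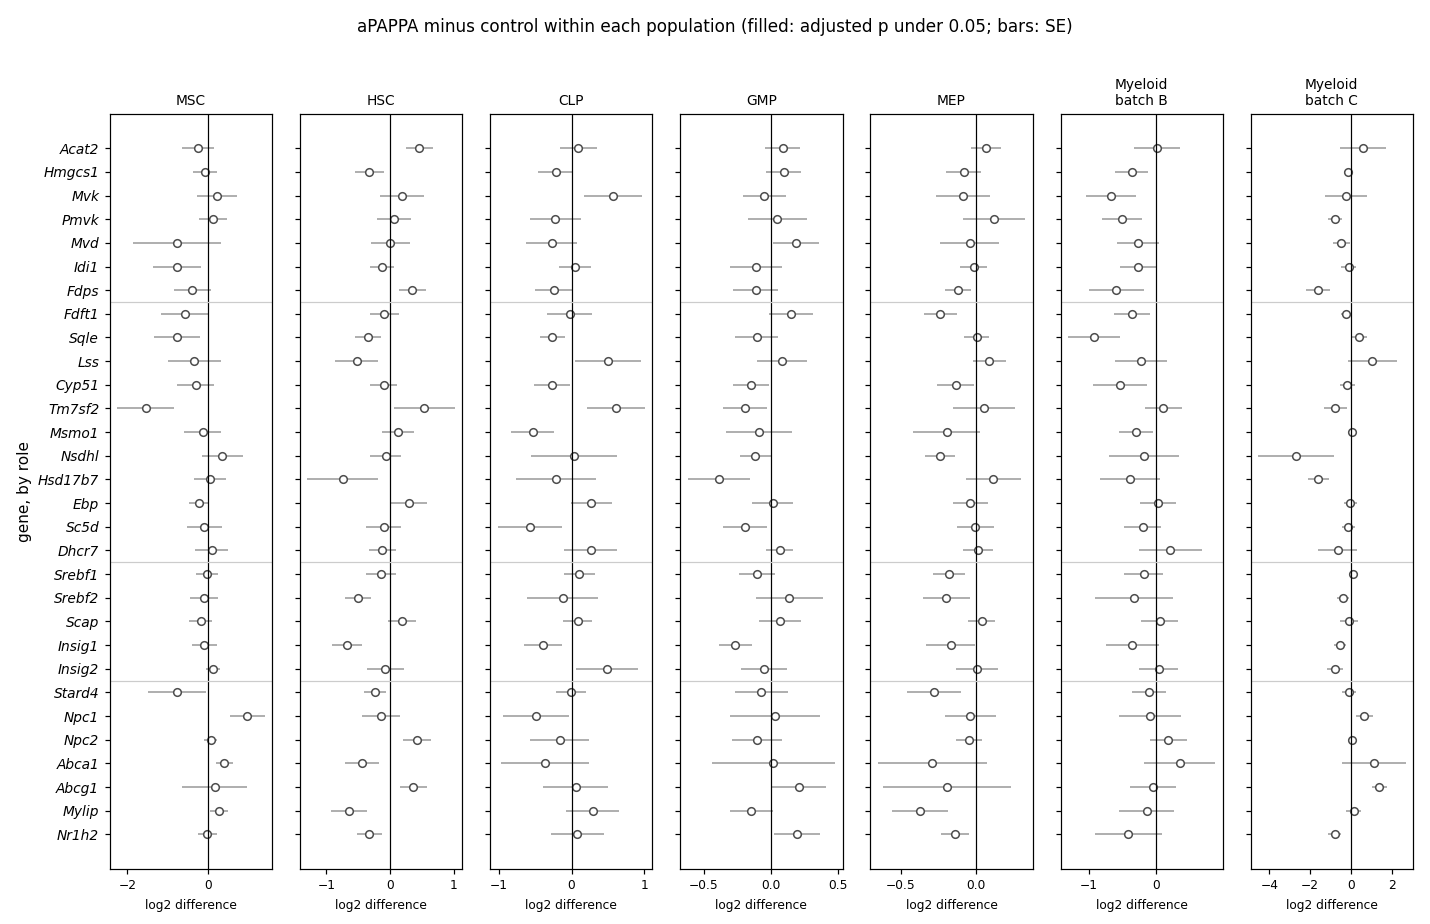
Log2 difference ± SE, treated minus control, of each gene (rows, ordered by role) in MSC, HSC, CLP, GMP, MEP and the Myeloid batches B and C, each panel with its own scale; filled points would have an adjusted p under 0.05. No point is filled.

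In Myeloid cells (6 treated and 6 control libraries, batch as a term) 0 members were called by edgeR or DESeq2, where edgeR called 0% of 16803 genes. In edgeR's test 437 of all genes had an unadjusted p under 0.05, and 3 of them were members. The log2 difference was negative in 24 of the 30 members, with a median of -0.24, against -0.03 for all genes. Pmvk, phosphomevalonate kinase, had 27.5, 25.8 and 21.1 CPM in treated pools of batch B, against 46.1, 32.8 and 27.3 CPM in control pools, and 16.7, 11.4 and 14.3 CPM in treated pools of batch C, against 27.4, 21.3 and 25.2 CPM in control pools. The groups overlapped narrowly in batch B and not in batch C (log2 difference -0.65 ± 0.21, adjusted p = 0.995). Fdps (-1.09 ± 0.41) and Hsd17b7 (-0.99 ± 0.39) followed, both with an adjusted p of 0.995. Without the filter on low counts Fdps was called (edgeR, adjusted p = 0.00216), and more of all genes were called too.

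Read apart, batch B and batch C each had 0 members called by edgeR, where 0% of 19925 and of 14325 genes were called. DESeq2 called 0 members in batch B and 1, Abcg1, in batch C, and in both batches it called more of all genes than edgeR. In batch B 191 of the 19925 genes had an unadjusted p under 0.05 in edgeR's test, and 1 of them was a member. That was Sqle, with 10.1, 8.45 and 16.3 CPM in treated pools, against 30.9, 20.6 and 13.8 CPM in control pools (-0.93 ± 0.38, adjusted p = 1). Mvk (-0.67 ± 0.37) and Pmvk (-0.51 ± 0.29) came next among the members. In batch C 1264 of the 14325 genes had an unadjusted p under 0.05 in edgeR's test, and 5 of them were members. Among these 5 the first was Abcg1 (chr17:31057675-31117988, plus strand). It had 324, 268 and 374 CPM in treated pools, all above the 191, 61.0 and 114 CPM of control pools (log2 difference 1.40 ± 0.37, adjusted p = 0.441). DESeq2 gave it an adjusted p of 0.0219, the fit without a filter 4.35e-08, and the fits without 1 pool between 0.0949 and 1. In the same libraries the 5 GMP markers summed to between 1236 and 2318 CPM in treated pools and 2583 and 2861 CPM in control pools, and the 6 stromal markers to between 135 and 203 CPM in treated pools and 25.7 and 114 CPM in control pools. The 6 Myeloid markers summed to between 105300 and 133300 CPM in treated pools and 137600 and 173900 CPM in control pools. The 5 monocyte markers summed to between 1202 and 1429 CPM in treated pools and 994.6 and 1061 CPM in control pools, and the 5 erythroid markers to between 137 and 1373 CPM in treated pools and 112 and 204 CPM in control pools (5 of 5 with a positive log2 difference, median 2.14, 0 called by edgeR). Their part in the difference was not tested.

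Hsd17b7 in batch C had 12.5, 7.42 and 3.39 CPM in treated Myeloid pools, all below the 31.6, 25.1 and 14.9 CPM of control pools (-1.60 ± 0.52, adjusted p = 0.469). Fdps had 2.78, 8.79 and 16.6 CPM in treated pools, against 16.6, 29.0 and 42.6 CPM in control pools (-1.62 ± 0.61, adjusted p = 0.502, and 0.0254 without the filter on low counts). Abca1, the other efflux transporter, had 4.49, 6.29 and 0.565 CPM in treated pools and 0, 2.55 and 2.78 CPM in control pools, which overlap. The difference between the batches in the treatment effect was called for 0 members by either tool. By edgeR 0% of 19551 genes were called higher and 0.00511% lower, and DESeq2 called more genes. In edgeR's test 1220 of all genes had an unadjusted p under 0.05, and 2 of them were members. The member terms with the smallest p, batch C minus batch B, were those of Abcg1 (1.47 ± 0.54, adjusted p = 0.748), Sqle (1.35 ± 0.55, adjusted p = 0.765) and Hsd17b7 (-1.20 ± 0.73, adjusted p = 0.874).

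Levels also differed between the Myeloid batches. Among treated Myeloid libraries, no batch C pool overlapped a batch B pool for 4 members that were higher in batch C, where 13.8% of 17117 genes were so, and for 11 that were lower, where 28.6% were so. Among control Myeloid libraries these counts were 2 members higher, against 10.9% of 17343 genes, and 7 lower, against 20.8%. Nr1h2 averaged 35.7 ± 14.2 CPM in treated and 63.5 ± 15.3 CPM in control pools of batch C, and 177 and 235 CPM in treated and control pools of batch B (n = 3 each). Fdps averaged 9.40 CPM in treated and 29.4 CPM in control pools of batch C, and 90.5 and 137 CPM in treated and control pools of batch B. Abcg1 ran the other way, with means of 322 and 122 CPM in treated and control pools of batch C, and 31.7 and 33.0 CPM in treated and control pools of batch B.

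In control MSC libraries 8 members were higher in batch C than in batch A with no overlap, where 15.2% of 14863 genes were so, and 3 were lower, where 8.52% were so. Among the higher ones, Srebf2 had 37.7 to 51.1 CPM in batch C and 12.4 to 29.2 CPM in batch A. Idi1 had 12.2 to 16.6 CPM in batch C and 4.11 to 10.6 CPM in batch A. Mvd had 5.02 to 7.14 CPM in batch C and 0 to 2.9 CPM in batch A. Their calls as lower in MSC than in progenitors used batch A alone, and batch C held no sorted progenitors. Abcg1 had 457, 74.0 and 423 CPM in control MSC pools of batch C and 13.3, 44.8 and 68.3 CPM in those of batch A. In WBM it had 59.3 CPM in the 1 control library of batch C and 24.2, 34.9 and 24.9 CPM in the 3 of batch A. Insig2 was at a like level in both MSC batches, with means of 177 ± 27.7 CPM in batch C and 158 ± 22.8 CPM in batch A (SD, n = 3 each).

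**Figure D5:**
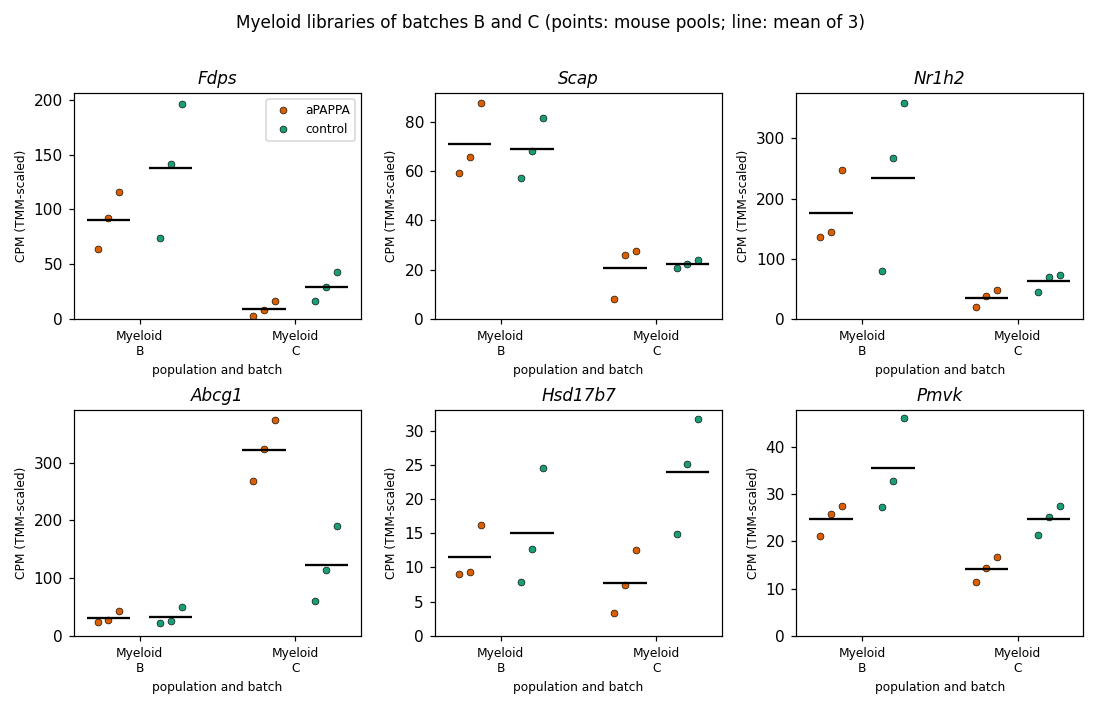
CPM of 6 genes in the Myeloid libraries of batches B and C, with treated pools left of control pools in each batch; points are mouse pools and lines are means of 3. Fdps, Scap and Nr1h2 are lower in batch C than in batch B, and Abcg1 is higher there, with treated pools between 268 and 374 CPM.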

How the data were processed

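RNA-seq of unsorted and sorted mouse bone marrow was deposited as 1 table of estimated counts per gene and library. The authors' expected counts came from Salmon, with FastQC 0.11.5 and the mm10 build, as the submitters' processing notes list them. Which Salmon release and gene models were used, and with which strand setting, is not given in the sources used here. The library kit was directional, per the labels' protocols. How Salmon divides reads between overlapping or near-identical genes could change the value of a gene such as Fdps or Tm7sf2. The table holds 56332 genes, of which 8620 carry UCSC identifiers that took between 0.5819% and 23.2853% of a library's counts, and these stayed in the library sizes. No 2 libraries were identical.

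Expected counts were rounded to whole numbers. Each comparison was fitted with edgeR 4.0.16 (R 4.3.3): filterByExpr, TMM scaling, the robust quasi-likelihood test, and Benjamini-Hochberg adjustment over all genes tested, with a threshold of 0.05. Batch was a term in MSC and in the fit of all Myeloid libraries. Contrasts of populations used control libraries of 1 batch and set a population against the unweighted mean of the others. Levels are CPM on 1 TMM scaling of all 57 libraries. The SE of a log2 difference is its size divided by the square root of the test's F. The scripts were tested on simulated data. Depth per library is in the report's depth paragraph, and floors for counts of 0 use 3 counts and cover counting error only.

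Alternatives were DESeq2 1.42.0, median-of-ratios scaling (RLE), no filter, leaving out each pool, leaving out libraries under 1000000 counts, the pool as a block, 1 fit of all control libraries, batch C alone for MSC, and treated in place of control libraries. Pools pair populations because the labels give the same mouse pool to several populations. In control progenitors the deviations of same-pool libraries had correlations across genes of -0.4948 to 0.4977 (median 0.1500, 21 pairs), against a median of -0.0234 in 63 other pairs. For MSC and Myeloid cells of batch C they were 0.1192 to 0.1789 (3 pairs). No pool holds both treated and control mice.

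Named in each comparison were all members called, or the 3 with the smallest p where fewer were called. Further members, per-library examples and the non-member genes named were chosen after their values were seen. The members and lists were chosen with earlier results of these data known. Positions are GENCODE M21 on GRCm38.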

Additional observations from a re-analysis of the deposited data

Results flagged for a closer look

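Within groups of 4 libraries, 1 library of the group stood far from the others in 12 of 210 cases, spread over 9 libraries, and chance flags about 1 in 20 groups. Both cases in the very shallow treated HSC pool 6 rest on few counts: Pmvk at 10.96 CPM, below the others, and Npc2 at 202.8 CPM, above them. The other treated HSC case was Insig2 in pool 8, at 13.72 CPM. In treated GMP pool 2, Srebf1 (88.05 CPM) and Scap (132.6 CPM) both stood above the other 3 pools. In control GMP, Insig1 was high in pool 1 (41.96 CPM) and Abcg1 was high in pool 3 (18.68 CPM). In treated MEP, pool 4 was high for Stard4 (48.95 CPM) and Abcg1 (32.1 CPM), and pool 2 was low for Sqle (41.71 CPM). In control MEP pool 1, Insig2 was low (7.871 CPM), and in control CLP pool 7, Hmgcs1, which makes the precursor of mevalonate, was low (29.64 CPM against 42.81 to 45.14 CPM in the others).

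Tm7sf2 moved in opposite directions under the same contrast. Every treated pool was above every control pool in HSC (log2 difference 0.54) and in CLP (0.61), and every treated pool was below every control pool in MSC (-1.54). These separations rest partly on few counts. In MSC, control pool 7 and treated pool 8 held 2 counts each, and the nearest batch C pools had 5.38 CPM (treated) and 5.49 CPM (control). Treated HSC pools averaged 5.46 CPM, and in the shallow pool 6 of these, 2 counts of Pmvk equalled 10.96 CPM. The difference between MSC and HSC or CLP was not tested, and none of the 3 treatment differences passed the adjusted threshold.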

How the results depend on the processing

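No member reversed direction among the single-gene values under any alternative run. The differences checked were only those of members called, or of the 3 with the smallest p, in each comparison. They were picked by their p in the same data, so reversals were unlikely beforehand. Of the values checked, which include group mean levels and p-values without a direction, 1331 kept direction and side of the threshold or moved little. Of the rest, 155 lost the threshold, 4 passed it anew and 68 moved by more than the spread. The causes of the changes below were not tested. Of all genes, treatment called 5 in MSC, against 55 with no filter, 43 by DESeq2, 2 without libraries under 1000000 counts, 3 in batch C alone and 0 to 4 without 1 pool. In HSC it called 1, against 181 with no filter, 3 by DESeq2 and 1 to 149 without 1 pool. In MEP it called 0, against 2 with no filter, 12 by DESeq2 and 0 to 1 without 1 pool. In Myeloid cells it called 0, against 112 with no filter and 1 by DESeq2, in batch B 0 against 42 and 11, and in batch C 0 against 333 and 139, with 0 to 2 without 1 pool. The batch term of the treatment effect called 1, against 144 with no filter, 165 by DESeq2 and 0 to 9 without 1 pool. Members called were 1 in Myeloid cells and 2 in batch C with no filter, and 1 in batch C by DESeq2.

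Between populations, genes called numbered 5506 in HSC (3538 in 1 fit of all control libraries, 3140 to 6530 without 1 pool), 4334 in GMP (2882, and 2804 to 4802), 4757 in MEP (2731, and 2838 to 4364), and 4379 in CLP (2892 with the replicate block, 2909 in treated libraries, 2068 to 3571 without 1 pool). In MSC against Myeloid they numbered 7812 (4164 to 7626 without 1 pool). Members called were 16 in HSC (8 in 1 fit, 7 in treated libraries, 7 to 19 without 1 pool), 13 in GMP (8 with no filter, 7 in 1 fit, 7 to 14 without 1 pool), 4 in MEP (7 by DESeq2, 2 in 1 fit, 9 in treated libraries), and 12 in MSC against Myeloid (6 to 12 without 1 pool). In CLP they were 7, against 4 with no filter, 3 without libraries under 1000000 counts, 4 with the replicate block, 3 in 1 fit, 3 in treated libraries and 1 to 6 without 1 pool. Blocking by pool ended the calls of Insig2 in HSC and of Mvd, Npc2 and Acat2 in CLP, and no other member call. In GMP 1 fit of all control libraries moved the median of all genes by 0.13 and the share of calls that were higher to 54.1%, against 43.4%, and in CLP it moved the median by -0.19. In MSC against progenitors that share was 47.3%, against 57.5% with RLE scaling, 58.1% by DESeq2 and 57.8% in 1 fit.

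Depth limits the values of the 4 libraries under 1000000 counts, which are in HSC, CLP and MSC.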
